A study of Homo sapiens with 4 samples.

Results

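Genes with a LINC symbol, the running names that the nomenclature committee gives to long intergenic noncoding RNAs of no stated function, were followed in T cell leukaemia cells deprived of glucose. The genes described here are the LINC-numbered symbols whose mean over the 4 libraries was at least 20 normalized counts, that is reads divided by a size factor per library. They filled 123 of the 1417 LINC rows and 122 of the 1407 LINC gene identifiers in a table of 60868 rows and 60609 identifiers. LINC00976 and LINC00977 share 1 identifier and count once. Of the other LINC identifiers, 224 had a mean from 1 to 20, 406 lay above 0 but under 1, and 655 had no read in any library.

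The No glucose group holds 2 libraries, ONG_9 and ONG_10, from cells kept for 24 hours in medium without glucose. The Ctrl group holds 2 libraries, CTRL_7 and CTRL_8, from cells in control medium, which the labels mark as untreated. All came from CCRF-CEM/HA-AMPKa2, an established T cell acute lymphoblastic leukaemia line, so that its HA-tagged AMPK alpha subunit is present in both groups, in RPMI with 10% fetal bovine serum. Total RNA was extracted with RNeasy plus, made into TruSeq Stranded Total RNA libraries and read as single 75 bp ends on a NextSeq 500. Whether the line is 1 clone, and whether the replicates were separate cultures, is not given in the sources used here, so the p-values below rest on the spread between these libraries alone, and that spread may be technical. In bulk RNA, fewer cells with a transcript and less transcript per cell cannot be told apart.

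Long intergenic noncoding RNAs are mostly made by RNA polymerase II, and are capped and often spliced like messenger RNAs. They are typically less abundant than messenger RNAs and more restricted to certain cell types, and many stay in the nucleus. Some act on the chromatin or the neighbouring gene where they are made, some bind proteins or microRNAs elsewhere, a few hold a reading frame for a small protein, and for many no role is known.

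Reads recovered from the normalized values numbered 19035535 and 20081266 in the No glucose libraries, and 96698709 and 24513840 in the Ctrl libraries CTRL_7 and CTRL_8. Each of 8 T lineage markers was detected, with a summed level of 57025 to 57305 normalized counts in No glucose and 57057 to 58057 in Ctrl. Of these, CD28 and CD3E were called higher and CD7, CD1A and CD3G lower without glucose, with log2 fold changes of 0.89, 0.54, -0.92, -0.70 and -0.45. The 4 B cell markers summed to 438 to 457 in No glucose and 704 to 710 in Ctrl, nearly all of it CD79A, while MS4A1 had at most 1 read. The 4 myeloid markers summed to 31.8 to 40.7 in No glucose and 23.4 to 29.4 in Ctrl, with MPO at 0.

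Printed first are sequences at the start of some of the RNAs named below. For LINC02731 and LINC01749, the first bases of a GENCODE 29 transcript on GRCh38 are shown, both on the plus strand, because both are among the 5 largest rises. They begin the transcripts at chr11:134032272-134032371 and chr20:63009383-63009473.
LINC02731: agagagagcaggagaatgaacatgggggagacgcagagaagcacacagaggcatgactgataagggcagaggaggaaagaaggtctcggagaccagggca
LINC01749: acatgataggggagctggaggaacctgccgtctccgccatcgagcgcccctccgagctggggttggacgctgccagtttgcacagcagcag

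Promoter sequences from RefSeq, on GRCh38.p14, run from 250 bases before the annotated start to 50 bases after it, and the capitals mark the 50 bases from the start on. LINC02042, LINC00602 and LINC00473 are shown as large rises whose RefSeq start lies 0, 0 and 39 bases from the GENCODE start. They lie at chr3:112749270-112749569 on the minus strand, chr6:165987301-165987600 on the plus strand and chr6:165987990-165988289 on the minus strand.
LINC02042: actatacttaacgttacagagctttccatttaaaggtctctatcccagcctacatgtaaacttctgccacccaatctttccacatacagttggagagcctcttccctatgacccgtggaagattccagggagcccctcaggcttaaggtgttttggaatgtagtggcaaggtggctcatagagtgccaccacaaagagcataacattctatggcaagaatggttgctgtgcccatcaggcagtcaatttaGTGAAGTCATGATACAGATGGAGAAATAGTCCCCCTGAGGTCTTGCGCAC
LINC00602: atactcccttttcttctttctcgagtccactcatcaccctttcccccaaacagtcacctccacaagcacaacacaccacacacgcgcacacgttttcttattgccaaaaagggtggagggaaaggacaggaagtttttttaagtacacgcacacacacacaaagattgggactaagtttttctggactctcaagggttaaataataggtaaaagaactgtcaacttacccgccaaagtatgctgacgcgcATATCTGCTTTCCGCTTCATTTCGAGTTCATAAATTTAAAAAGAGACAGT
LINC00473: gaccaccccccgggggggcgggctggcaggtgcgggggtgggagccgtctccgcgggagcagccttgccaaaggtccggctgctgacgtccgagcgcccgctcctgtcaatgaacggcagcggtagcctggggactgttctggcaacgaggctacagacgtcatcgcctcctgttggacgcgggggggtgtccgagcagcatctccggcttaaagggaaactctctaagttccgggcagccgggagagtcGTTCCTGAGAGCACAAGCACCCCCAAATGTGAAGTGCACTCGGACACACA

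LINC01224, the deepest fall, and LINC01547, a fall that starts head to head with a protein-coding gene, lie at chr19:23416025-23416324 and chr21:44939864-44940163, both on the minus strand.
LINC01224: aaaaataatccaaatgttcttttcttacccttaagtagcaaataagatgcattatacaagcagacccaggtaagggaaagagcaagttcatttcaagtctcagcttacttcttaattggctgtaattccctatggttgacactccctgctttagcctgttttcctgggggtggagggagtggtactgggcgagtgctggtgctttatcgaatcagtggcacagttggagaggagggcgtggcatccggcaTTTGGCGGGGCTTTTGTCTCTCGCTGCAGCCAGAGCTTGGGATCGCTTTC
LINC01547: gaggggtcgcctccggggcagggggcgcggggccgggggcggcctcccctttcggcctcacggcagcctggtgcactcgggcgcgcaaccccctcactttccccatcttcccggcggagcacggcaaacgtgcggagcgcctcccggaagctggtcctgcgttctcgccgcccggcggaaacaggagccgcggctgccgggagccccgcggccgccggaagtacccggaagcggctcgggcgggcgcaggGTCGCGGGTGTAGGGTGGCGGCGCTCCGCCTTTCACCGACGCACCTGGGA

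The 122 LINC identifiers spanned means from 20.05 to 2406 normalized counts, with a median of 101. Of these, 38 lay under 50, 48 between 50 and 200, 29 between 200 and 1000, and 7 at 1000 or above. Per kilobase of annotated exon the mean level ran from 3.004 to 739 normalized counts. Together they took 0.112% ± 0.000617 of all gene reads in No glucose and 0.0860% ± 0.000987 in Ctrl (SD, n = 2 each). A share of reads also moves with the reads of all other genes, so it does not measure a change of the LINC RNAs alone. It includes the identifier that LINC00473 shares with the coding gene PDE10A, with means of 1562 in No glucose and 407 in Ctrl. It also includes 14 identifiers that reached a mean of 20 in No glucose alone.

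More LINC RNAs were higher than lower without glucose. In a limma fit over the 27486 genes with a mean of at least 1, with p-values adjusted by the Benjamini-Hochberg method and called below 0.05, 54 of the 122 were higher, 12 were lower and 56 were not called. Over all genes tested, 14.4% were called higher, 20.7% lower and 35.1% in either direction, and over the 14950 genes with a mean of at least 20 these shares were 21.4% and 36.5%. The median log2 fold change of the LINC identifiers was 0.41, on the scale of log2(normalized count + 1), against 0.04 over all genes tested and -0.09 over genes with a mean of at least 20. Of the 122, 23 were called with a rise of at least 1 on the log2 scale and 0 with a fall of that size, against 5.62% and 4.48% of all genes tested. Counted by overlap of the groups alone, in 79 both No glucose values lay above both Ctrl values, in 23 below both, and these 102 of 122 stand beside 81.2% of all genes with a mean of at least 20 and 66.8% of all genes tested. On the recovered reads, edgeR called 55 LINC identifiers higher and 15 lower (14.4% and 22.9% of all genes tested), and DESeq2 called 41 and 10 (13.6% and 27.2%). By the adjusted p of the authors' deposited table, 40 were higher and 10 lower at the same threshold, against 12.5% and 25.3% of its 19053 genes with an adjusted p.

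Since the threshold is on the mean of all libraries, some LINC RNAs passed it through the group in which they were high. These were 14 that reached a mean of 20 in No glucose alone, of which 11 were called higher and 0 lower, and 3 that reached it in Ctrl alone, of which 0 were called. The 105 with a mean of at least 20 in both groups held 43 higher and 12 lower calls, with a median log2 fold change of 0.38, and 12 of them were called with a rise of at least 1, so that 11 of the 23 such rises are RNAs admitted through No glucose alone. Single Ctrl libraries bore on the counts: without CTRL_7 there were 33 higher and 6 lower calls (7.46% and 12.2% of all genes tested), and without CTRL_8 there were 38 and 6 (7.44% and 14.6%). Without ONG_9 there were 52 and 14 (15.2% and 23.3%), and without ONG_10 there were 40 and 10 (11% and 20.7%). When libraries were scaled to their total reads instead, the median log2 fold change of all genes tested moved to 0.23, and 72 LINC identifiers were called higher and 8 lower, against 22.2% and 13.9% of all genes tested.

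**Figure D1:**
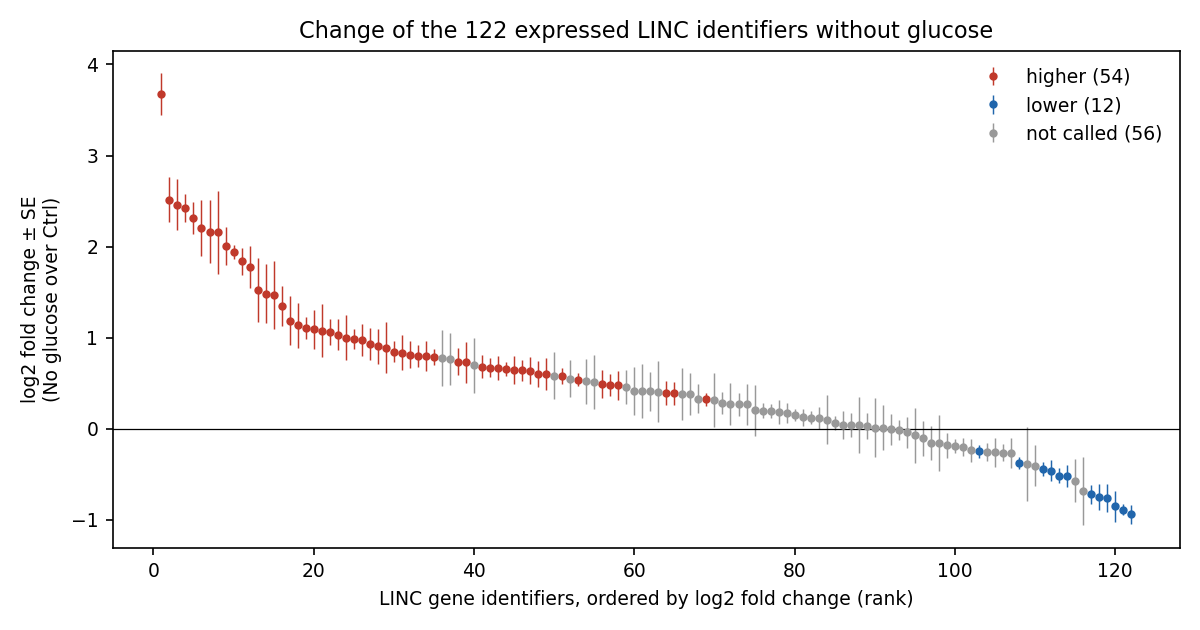
Log2 fold change (No glucose over Ctrl) of the 122 LINC identifiers in rank order, with bars of 1 standard error and colours for the limma call. The right side of the plot ends at -0.94, while the left side reaches 3.67.

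In the plot of ranked change the values run from -0.94 to 3.67 on the log2 scale. LINC02731, LINC01146, LINC00310, LINC01252, LINC00602 and LINC01988, 6 of the 10 largest rises, had a Ctrl mean under 20, and so stand in the set only through their No glucose values. The calls differed by level, as they did over all genes. Below a mean of 50, 15 of 38 LINC identifiers were higher and 0 lower, against 562 and 215 of 2643 genes with a mean from 20 to 50. Of these 38, 13 were admitted through No glucose alone and made 10 of the 15 calls, while the 22 at 20 or more in both groups made 5 higher and 0 lower calls. Of the 48 between 50 and 200, 26 were higher and 2 lower. Between 200 and 1000, 12 of 29 were higher and 8 lower. Shares over all genes were not computed for these 2 middle ranges, so the counts there cannot be set against them. Of the 7 at 1000 or above, 1 was higher and 2 were lower, against 1132 and 3269 of 6078 genes at that level.

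LINC02731, a spliced RNA of unknown role at chr11:134032272-134046849 (plus strand, ENSG00000204241), had the largest rise. Its levels were 138 and 177 normalized counts in No glucose, against 10.6 and 12.0 in Ctrl. The log2 fold change was 3.67 ± 0.23 (standard error, as in all such values below; limma, adjusted p = 4.16e-07). LINC02731 passed the threshold only through No glucose. Like all the named rises it was picked from called genes whose groups do not overlap. JAM3, a junctional adhesion molecule whose start lies 36653 bases away, had a log2 fold change of 0.07 ± 0.06 (adjusted p = 0.393).

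LINC01146, now named HISLA and known from macrophages as an RNA that stabilises the hypoxia factor HIF-1 alpha, lies at chr14:88024550-88097619 (plus strand, ENSG00000258867). It had 78.8 and 82.8 normalized counts in No glucose, against 12.0 and 14.7 in Ctrl, a log2 fold change of 2.52 ± 0.25. LINC00310, at chr21:34157724-34190244 (plus strand), had 65.2 and 68.8 in No glucose, against 13.7 and 9.36 in Ctrl, a log2 fold change of 2.46 ± 0.28. In both the groups did not overlap, which the choice of the named rises required. Both stand in the set only through their No glucose values.

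LINC01749, at chr20:63009383-63085071 (plus strand, ENSG00000272259), had 297 and 356 normalized counts in No glucose, against 67.0 and 53.5 in Ctrl (log2 fold change 2.42 ± 0.16). LINC02649 had 159 and 194 in No glucose, against 33.0 and 36.1 in Ctrl (2.31 ± 0.18). Its nearest protein-coding start, 132753 bases away, is that of PFKFB3, the enzyme that makes the glycolysis activator fructose 2,6-bisphosphate. PFKFB3 had 3578 and 4054 normalized counts in No glucose, against 1893 and 1746 in Ctrl, a log2 fold change of 1.07 ± 0.07 (limma, adjusted p = 8.25e-07). Both genes of this neighbourhood were thus called higher.

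Lower down in level, LINC01252 had 42.5 and 51.9 normalized counts in No glucose, against 10.99 and 8.03 in Ctrl (log2 fold change 2.20 ± 0.31). LINC01988 had 39.4 and 33.7 in No glucose, against 13.1 and 4.01 in Ctrl, the last value being 3 reads (2.16 ± 0.46). Of the 10 calls this was the 1 lost under any of the alternatives tried: without ONG_10 the adjusted p was 0.0955, and without CTRL_8 the log2 fold change was 1.41. LINC02042, at chr3:112736447-112749319 (minus strand), had 155 and 115 in No glucose, against 35.7 and 29.4 in Ctrl (2.01 ± 0.21). The start of CD200R1L, a receptor-like gene of the CD200 receptor family, lies 97537 bases away, and its log2 fold change was 1.52 ± 0.19 (limma, adjusted p = 7.69e-05). Adjusted p-values of the 10 largest rises ran from 3.56e-08 to 0.00308.

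**Figure D2:**
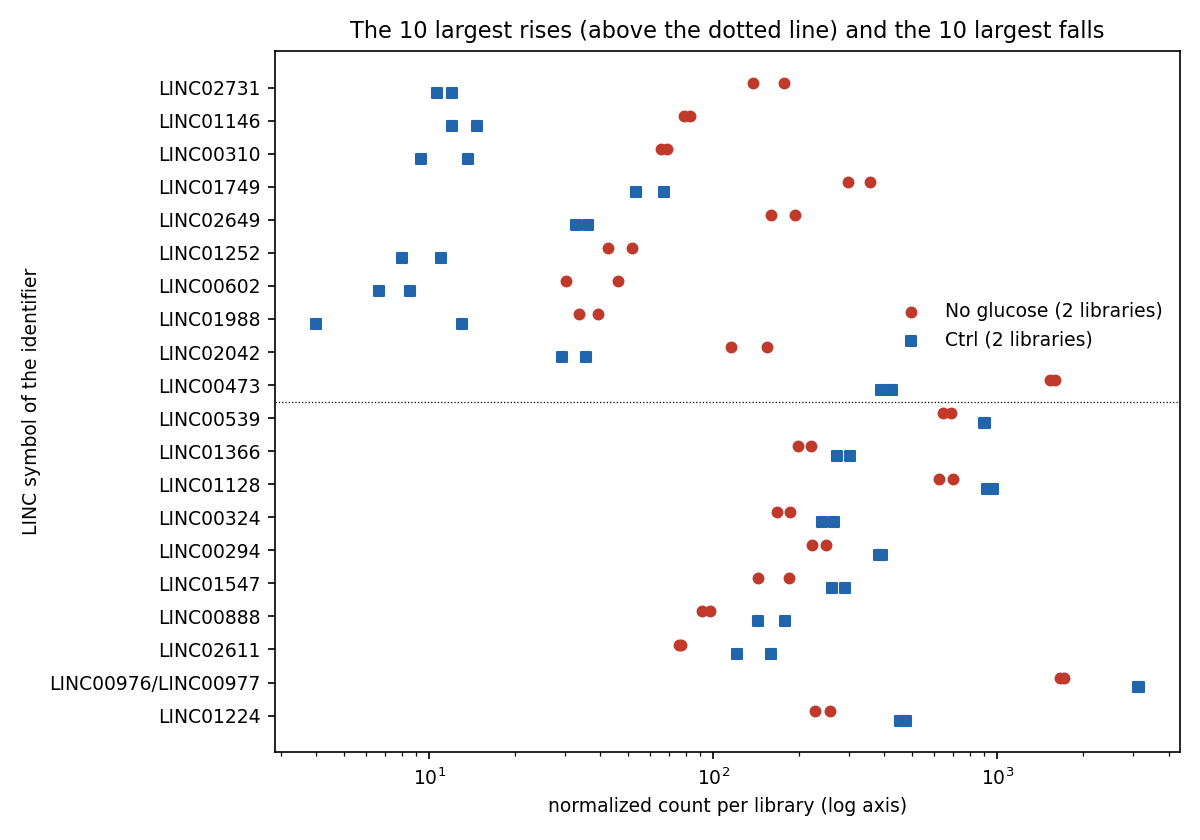
Normalized counts per library (log axis) of the 10 largest rises and the 10 largest falls, with circles for the 2 No glucose and squares for the 2 Ctrl libraries. Genes with overlapping groups were not eligible, and the gaps between groups are wider among the rises, 6 of which had a Ctrl mean under 20.

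Also among the 10 are LINC00473 and LINC00602, which lie at the same place. LINC00473, described in human cancer cells and adipocytes as an RNA induced by cyclic AMP signalling through CREB, shares its identifier in this table with PDE10A, which encodes a phosphodiesterase that breaks down cyclic nucleotides. The identifier (ENSG00000112541) covers chr6:165327287-165988078 on the minus strand, and the RefSeq gene LINC00473 lies wholly inside it, so reads of LINC00473 and PDE10A cannot be told apart. It had 1600 and 1525 normalized counts in No glucose, against 426 and 388 in Ctrl, a log2 fold change of 1.94 ± 0.08 (limma, adjusted p = 3.56e-08). LINC00602, a single-exon RNA at chr6:165987551-165989615 on the plus strand, overlaps the 5′ end of that gene, with starts 527 bases apart. It had 30.3 and 46.3 in No glucose, against 8.59 and 6.69 in Ctrl (2.16 ± 0.35). The strand setting of the authors' counting is not given in the sources used here, so reads of LINC00602 and of the more abundant PDE10A gene on the other strand may not have been kept apart.

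Other rises of at least 1 on the log2 scale were smaller. LINC00954 had 218 and 210 normalized counts in No glucose, against 61.1 and 57.5 in Ctrl (log2 fold change 1.84 ± 0.14). LINC00910 had 289.6 and 279 in No glucose, against 126 and 138 in Ctrl (1.10 ± 0.12). LINC01138, whose locus also holds the microRNA gene MIR5087, had 161 and 174 in No glucose, against 94.8 and 69.6 in Ctrl (1.03 ± 0.17). These 3 were picked from the called genes after their values were seen.

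The falls were shallower. LINC01224, at chr19:23399233-23416075 (minus strand), had 227 and 257 normalized counts in No glucose, against 477 and 453 in Ctrl, a log2 fold change of -0.94 ± 0.10 (limma, adjusted p = 2.56e-05). The nearest coding start, 20515 bases away, is that of the zinc finger repressor ZNF91, which moved the other way by 0.44 ± 0.05 (adjusted p = 5.63e-05). The identifier of LINC00976 and LINC00977, which is that of the noncoding gene CCDC26 on chromosome 8, had 1715 and 1656 in No glucose, against 3117 and 3138 in Ctrl (-0.89 ± 0.06, adjusted p = 6.71e-07). With a mean of 2406 it was the most abundant of all the LINC identifiers.

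LINC02611 had 75.8 and 77.2 normalized counts in No glucose, against 121 and 159 in Ctrl (log2 fold change -0.85 ± 0.17). LINC00888, whose locus holds small nucleolar RNA genes, had 97.0 and 91.2 in No glucose, against 143 and 179 in Ctrl (-0.76 ± 0.15). In both the Ctrl libraries differed from each other more than the No glucose libraries did, and the call was lost without CTRL_8 (adjusted p 0.0769 for LINC02611 and 0.0840 for LINC00888) and without ONG_10 (0.0513 and 0.0553).

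LINC01547 starts 97 bases from FAM207A, whose yeast counterpart acts in ribosome assembly, and reads away from it. It had 144 and 185 normalized counts in No glucose, against 291 and 261 in Ctrl (log2 fold change -0.75 ± 0.14), and the call was lost without CTRL_7 (adjusted p = 0.0599). FAM207A had 174 and 254 in No glucose, against 303 and 292 in Ctrl (-0.50 ± 0.16, limma, adjusted p = 0.0295). LINC00294, a single-exon RNA on the same strand as and inside the bounds of TCP11L1, had 249 and 222 in No glucose, against 383 and 393 in Ctrl (-0.72 ± 0.10). TCP11L1 itself had a log2 fold change of -0.48 ± 0.09 (adjusted p = 0.00144), and shared reads between the 2 genes are uncertain. Both members of each pair were lower without glucose.

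LINC00324, a spliced RNA 13443 bases from the start of the mitotic kinase gene AURKB, had 186 and 167 normalized counts in No glucose, against 242 and 266 in Ctrl (log2 fold change -0.52 ± 0.12). AURKB had 2230 and 2136 in No glucose, against 4813 and 4676 in Ctrl, a deeper log2 fold change of -1.12 ± 0.06. LINC01128 had 696 and 620 in No glucose, against 917 and 963 in Ctrl (-0.52 ± 0.08). Groups that do not overlap were a condition for naming LINC00324 and LINC01128, while AURKB was named as a neighbour. LINC01366 had 220 and 198 in No glucose, against 272 and 304 in Ctrl (-0.46 ± 0.12). LINC00539 had 685 and 644 in No glucose, against 904 and 898 in Ctrl (-0.44 ± 0.08). Of these, LINC00324 lost its call without CTRL_7 (adjusted p = 0.0577), without CTRL_8 (0.121) and with library totals (0.0703), and LINC00539 without CTRL_7 (0.0539). LINC01366 lost it without CTRL_7 (0.0664), CTRL_8 (0.179) or ONG_10 (0.0681), with DESeq2 (0.0557) and with library totals (0.120). The remaining lower calls were LINC02693 (-0.38 ± 0.07), lost without CTRL_7 (0.0580) or CTRL_8 (0.0588) and with library totals (0.0594), and LINC00909 (-0.25 ± 0.07), lost without CTRL_7 (0.231) or CTRL_8 (0.235), with DESeq2 (0.0563) and with library totals (0.687).

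The 5 LINC identifiers with the highest means did not share a direction: LINC00976/LINC00977 and LINC02693 were lower, 1 was higher and 2 were not called. LINC01215, the highest per kilobase of exon at 739 normalized counts, had 2092 and 1828 normalized counts in No glucose, against 1819 and 1918 in Ctrl, and the groups overlapped (log2 fold change 0.07 ± 0.08, limma, adjusted p = 0.552). LINC00667 had 1556 and 1456 in No glucose, against 1390 and 1324 in Ctrl (0.15 ± 0.07, adjusted p = 0.125). LINC01550 was the 1 called higher among the 5: it had 1495 and 1414 in No glucose, against 984 and 1017 in Ctrl, with a gap wider than the spread in either group (0.54 ± 0.07, adjusted p = 9.2e-05). LINC02693 had 1081 and 1036 in No glucose, against 1359 and 1388 in Ctrl. With library totals LINC01215 (0.28, adjusted p = 0.0162) and LINC00667 (0.36, adjusted p = 0.00192) were also called higher.

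At the threshold itself, the 3 LINC genes just inside had means of 20.05 (LINC01816), 20.3 (LINC00346, now PRECSIT) and 20.5 (LINC00896). LINC01816 had 21.2 and 39.3 normalized counts in No glucose and 10.3 and 9.36 in Ctrl, LINC00346 had 19.7 and 19.6 in No glucose and 23.01 and 18.7 in Ctrl, and LINC00896 had 24.3 and 28.1 in No glucose and 16.5 and 13.4 in Ctrl. LINC01816 was called higher (log2 fold change 1.47 ± 0.37, limma, adjusted p = 0.00912), and its log2 fold change was 1.04 without ONG_10 and 1.53 without CTRL_7. LINC00346 and LINC00896 were not called. With Ctrl means of 9.83 and 14.9, LINC01816 and LINC00896 stand in the set only through No glucose. Just outside were LINC01140 at 19.8, LINC01134 at 19.2 and LINC00893 at 18.8.

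LINC genes known from lymphocytes, on a list of 8, did not share a direction. LINC00861 had 80.4 and 67.3 normalized counts in No glucose, against 21.6 and 20.1 in Ctrl, a log2 fold change of 1.77 ± 0.23. Together with LINC01550 it made 2 higher calls among the 5 tested, and LINC00891, whose mean of 16.3 is below the threshold, made 1 lower call (-1.21 ± 0.34, adjusted p = 0.0162). LINC00426 had 132 in each No glucose library, against 153 and 159 in Ctrl, and was not called (-0.24 ± 0.13, adjusted p = 0.186). LINC00402 and LINC01871 had no read and LINC00299 had 1 read, in CTRL_7. Over all genes tested, 14.4% were called higher and 20.7% lower, and the list was not tested against these shares.

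Of 8 loci with a LINC symbol, past or present, that are known to encode a small protein, 5 were tested, with 2 higher and 1 lower. Over all genes with a mean of at least 20, 21.4% were called higher and 36.5% lower. The list was not tested against these shares. LINC00467, the one that is in the set of 122, had 159 and 153 normalized counts in No glucose, against 85.5 and 102 in Ctrl (log2 fold change 0.74 ± 0.15), a call that was lost without CTRL_7 (adjusted p = 0.0709). SMIM26, formerly LINC00493, was higher by 0.23 ± 0.07 and SMIM30, formerly LINC00998, lower with a log2 fold change of -0.61 ± 0.07. MTLN (-0.46 ± 0.18, adjusted p = 0.0706) and NBDY (-0.15 ± 0.08, adjusted p = 0.143) were not called. Of 7 former LINC genes that carry a functional name today, 5 were tested, with 2 higher and 1 lower, beside 14.4% and 20.7% of all genes tested. CYTOR (1.11 ± 0.30) and CHASERR, a regulator of the neighbouring remodeller gene CHD2 (0.50 ± 0.06), were higher, and BRD3OS was lower (-0.61 ± 0.10). NORAD, which binds PUMILIO proteins, had 17173 and 16250 normalized counts in No glucose, against 16414 and 16617 in Ctrl, and its groups overlapped (0.02 ± 0.05, adjusted p = 0.835). MIR99AHG was not called (-0.66 ± 0.62, adjusted p = 0.460).

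Beside other classes at a mean of at least 20, the LINC identifiers and 2 further groups of noncoding RNAs had more higher than lower calls. Among 68 genes that have a LINC name in the reference names but no symbol in the deposited table, 25 were higher and 4 lower, with a median log2 fold change of 0.42. Antisense RNAs, whose symbols end in AS and a digit, had 132 higher and 42 lower calls among 425, with a median of 0.25. Small nucleolar RNA host genes (SNHG), whose introns carry snoRNAs, went the other way, with 2 higher and 15 lower of 23 and a median of -0.39. Of 11565 protein-coding genes, 2186 were higher and 5156 lower, with a median of -0.18. The 224 LINC identifiers with a mean from 1 to 20 had 24 higher and 4 lower calls and a median of 0.45. The classes were not tested against each other and were not matched for level. Of all genes with a mean from 20 to 50, 21.3% were called higher and 8.13% lower. At a mean of 1000 or above these shares were 18.6% and 53.8%. Of the 54 higher calls among the LINC identifiers, 11 were of RNAs admitted through No glucose alone.

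**Figure D3:**
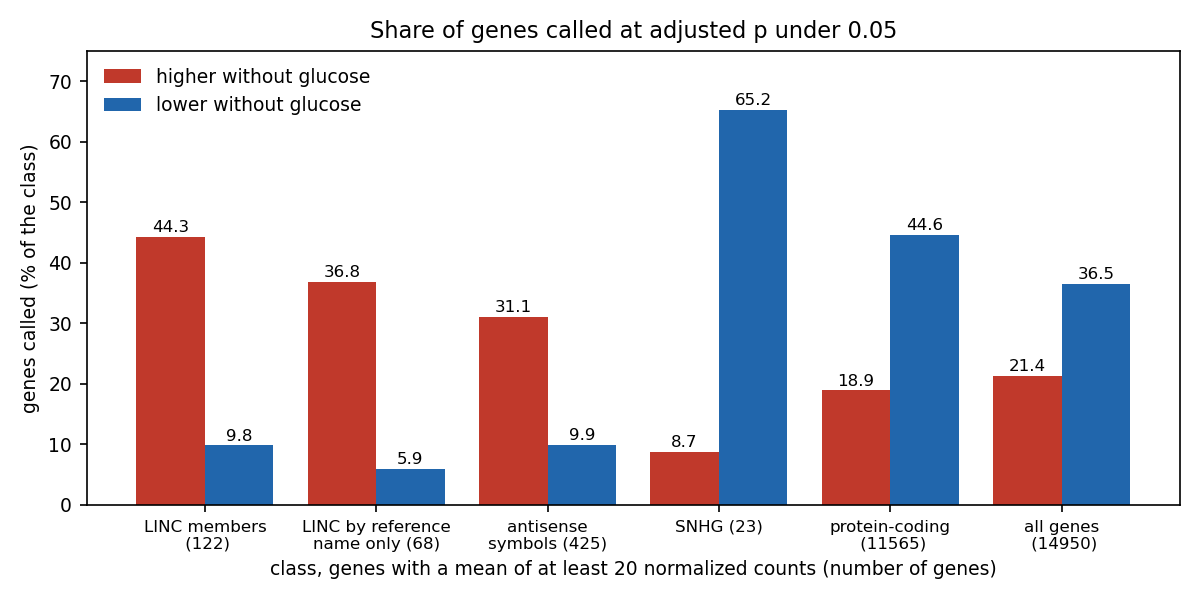
Share of genes called higher or lower (%), by class, for genes with a mean of at least 20 normalized counts. The LINC identifiers had 44.3% higher and 9.84% lower calls, against 18.9% and 44.6% of protein-coding genes. The classes were not matched for level.

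The plot of calls by class shows the LINC and antisense bars tilted towards higher calls and the SNHG and protein-coding bars towards lower calls. By annotated type, 93 of the 122 are lincRNA in GENCODE 29, with 44 higher and 9 lower. The remainder are 9 processed transcripts, 7 antisense, 5 transcribed unprocessed pseudogenes, 4 that GENCODE lists as protein-coding, 2 bidirectional promoter RNAs, 1 sense-overlapping RNA and 1 transcribed processed pseudogene. By exon number, 2 of 16 single-exon identifiers were higher and 1 lower. Of those with 2 to 4 exons, 21 of 52 were higher and 5 lower. Of those with 5 or more exons, 31 of 54 were higher and 6 lower. Shares of all genes by exon number were not computed, so this order need not be particular to LINC RNAs. Median exonic length was 3843 bases for the higher, 2976 for the lower and 2555 for those not called. Their median level was 102, 333 and 62.9 normalized counts in the same order, and the part of level in the relation to exon number was not tested.

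Position relative to protein-coding genes divided the LINC identifiers into 88 that lie apart, 7 that start within 2000 bases of a coding gene and read away from it (divergent), 14 that overlap one on the opposite strand and 13 on the same strand. Those apart had 40 higher and 9 lower calls and a median log2 fold change of 0.44. Those overlapping on the opposite strand had 8 higher and 1 lower (median 0.72), those on the same strand 4 and 1 (0.20), and the divergent ones 2 and 1 (-0.01). For the overlapping ones the source of reads is uncertain. Shares of all genes by layout were not computed.

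Neighbouring coding genes changed in either direction beside the LINC RNAs. The partner is the divergent or overlapping coding gene, and for those lying apart the coding gene with the nearest start. Such a partner was tested for 101, and in 49 of these pairs both genes had the same sign of change. Of all 122 LINC identifiers 91 had a positive change. Among those lying apart it was 68 of 88, against 31 of their 72 tested partners. Partners with a positive change were 4 of 7 tested in the divergent layout. They were 6 of 12 in the opposite-strand and 5 of 10 in the same-strand layout. The same-sign count that such shares alone would give was not computed, so the 49 shows neither a link nor its absence. Nearest coding starts lay up to 1539434 bases away. In 31 pairs both genes were called, 18 in the same direction and 13 in opposite directions. LINC01876 lies 87398 bases from NR4A2, an orphan nuclear receptor gene induced by many stimuli, and had a log2 fold change of 0.50 beside 4.43 ± 0.19 for NR4A2. The call of LINC01876 was lost without CTRL_7 (adjusted p = 0.159), CTRL_8 (0.205) or ONG_10 (0.0918), and with DESeq2 (0.192). LINC00861 has as its nearest coding start that of TRIB1, a pseudokinase gene, 520928 bases away, which had 4.44 ± 0.22. LINC00885, beside the transferrin receptor gene TFRC (60447 bases), had -0.02, against -2.09 ± 0.05 for TFRC. Among the tested partners TRIB1 and NR4A2 had the largest rises and TFRC the deepest fall. These pairs therefore do not stand for the others, and a link within them was not tested. LINC00649, on the opposite strand of the ATP synthase subunit gene ATP5PO with starts 446 bases apart, was higher by 0.79 ± 0.09 while ATP5PO was lower (-0.61 ± 0.07).

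**Figure D4:**
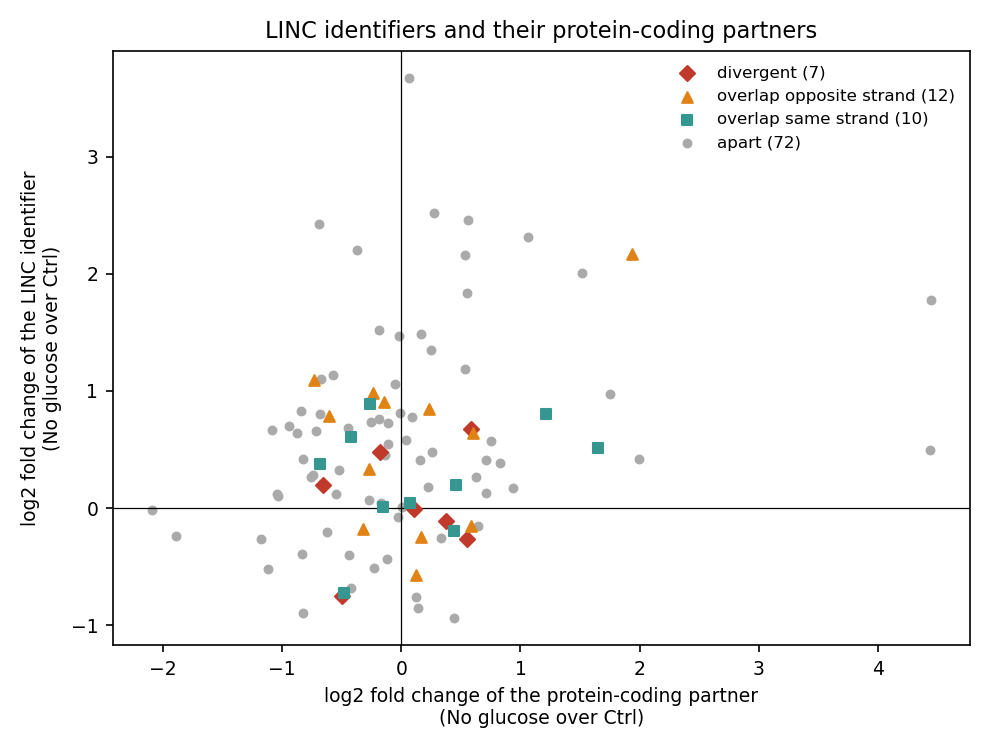
Log2 fold change (No glucose over Ctrl) of each LINC identifier (vertical axis) and of its protein-coding partner (horizontal axis), for the 101 pairs in which the partner was tested, coloured by layout. Points fill all 4 quadrants, with 49 of 101 pairs of the same sign.

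Within the plot of partners, the divergent pairs also fell on both sides. LINC01089 and SETD1B, a histone methyltransferase gene 274 bases away, were both higher (0.67 ± 0.10 and 0.59 ± 0.09). LINC01547 and FAM207A were both lower. LINC01534 was higher (0.48 ± 0.12), a call lost without CTRL_7 (adjusted p = 0.117) or CTRL_8 (0.117) and with DESeq2 (0.0939), with ZNF567 at -0.18 ± 0.07 (adjusted p = 0.0677). LINC01184, next to the sodium, potassium and chloride cotransporter gene SLC12A2, had 0.20 ± 0.08 (adjusted p = 0.0760), while SLC12A2 was lower (-0.65 ± 0.06). LINC00205 was not called (-0.26 ± 0.10, adjusted p = 0.0536; 0.0236 with edgeR), and its partner POFUT2 was higher (0.55 ± 0.11). LINC01126 (-0.11 ± 0.19) and LINC01137 (-0.01 ± 0.17) were not called, beside ZFP36L2, which was higher (0.37 ± 0.09), and ZC3H12A, which was not called (0.11 ± 0.16).

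RefSeq gave a promoter sequence for 84 of the 122, of which 63 start within 500 bases of the GENCODE start. Motifs were searched on both strands in these 63, of which 29 were called higher, 4 lower and 30 not called, and in all 35116 RefSeq promoters of the same length. The NBRE AAAGGTCA, to which NR4A receptors bind, was found in 0 of the 63, against 1.22% of all promoters. Outside the 63, the promoter of LINC01988 holds it at 5 bases after the start. The RefSeq start of LINC01988 lies 3788 bases from its GENCODE start. The cyclic AMP response element TGACGTCA was found in 1 of the 29 higher promoters, that of LINC01409, and in 0 of the others, against 1.85%. Its core TGACG, which every full element also holds, was found in 10 of 29 higher, 1 of 4 lower and 11 of 30 uncalled promoters, against 24.6%. The LINC00473 promoter printed above holds it at 167 and 92 bases before the start, and the LINC00602 promoter at 8 bases before the start. The RefSeq start of PDE10A, at chr6:165988052 on the minus strand, lies inside the LINC00473 window, so these sites cannot be assigned to LINC00473 alone. The AP-1 site TGANTCA stood in 2 higher and 3 uncalled promoters (7.71% of all), the E-box CACGTG in 3 and 5 (7.26%), and the TATAAA sequence in 6 and 2 (11.5%), with 0 of the 4 lower in each. LINC02042, LINC01224 and LINC01547 hold none of these 6 motifs in the window. A match describes letters, not a bound site. The median GC content was 55% in the higher, 50.7% in the lower and 58.7% in the uncalled promoters, against 58.7% of all promoters.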

How the data were processed

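Per the submitters' processing notes, STAR 2.6.0c, RSEM 1.3.0 and DESeq2 1.18.1 were used with hg38. The annotation release and counting strand are not given in the sources used here. The signal values, as deposited by the authors, are normalized counts for each gene and library. The authors' own comparison, as deposited, adds log2 fold changes, a test statistic (score), p-values and adjusted p-values. These served here only to count the authors' calls. ONG columns were read as No glucose because the remaining columns are named CTRL and the labels give only these groups.

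Whole reads were recovered from the smallest step of each library, and 100% of the values above 0 came out within 0.01 of a whole number. The main test was limma 3.58.1 with a mean-variance trend (R 4.3.3), two-sided, on log2 values after adding 1. It ran on the 27486 genes with a mean of 1 or more, and p-values were adjusted over all of them by the Benjamini-Hochberg method. On the recovered reads edgeR 4.0.16 called 3964 genes higher and 6292 lower, and DESeq2 1.42.0 called 2436 and 4866 of the 17894 to which it gave an adjusted p. The planned test for a table without raw counts was limma. Rows of 1 identifier were counted once. Coordinates, types and exons came from GENCODE 29, promoters from RefSeq GRCh38.p14.

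Members and lists were chosen with earlier results of these data known. Named genes were the 10 largest and 10 lowest log2 fold changes among called members whose groups do not overlap, the 5 highest means, 3 on each side of the threshold, the 3 lists, and coding partners. Further members named were chosen after their values were seen. Alternatives were edgeR, DESeq2, library totals, other pseudocounts and filters, other member thresholds, and leaving out each library. The fits were also run on simulated data, with the same dispersion for every gene. Changes were set there only in genes with a Ctrl mean of at least 20. That run therefore does not cover the members with a lower Ctrl mean.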

Additional observations from a re-analysis of the deposited data

How the results depend on the processing

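All 66 calls among the 122 LINC identifiers were also made by edgeR, which called 55 higher and 15 lower. DESeq2 made 51 of them (41 higher, 10 lower), and 50 were made in the authors' deposited comparison. Leaving out 1 library gave 33 to 52 higher and 6 to 14 lower calls and a median log2 fold change of 0.40 to 0.47. The counts without CTRL_7 were 33 and 6, without CTRL_8 38 and 6. The median of 0.41 became 0.43 with edgeR, 0.43 with DESeq2, 0.62 with library totals (10 identifiers changed sign), 0.42 with a pseudocount of 0.5, 0.38 with a pseudocount of 5, 0.46 for the 163 with a mean of at least 10, 0.33 for the 84 with a mean of at least 50, and 0.38 for the 105 at 20 in both groups. For the named members, leaving out 1 library gave LINC01215 log2 fold changes from -0.031 (without ONG_9) to 0.164, and LINC00346 from -0.216 to 0.068 (without CTRL_7). LINC00346 also turned to 0.13 with library totals, and was not called. The same scaling added calls for LINC01215 (adjusted p = 0.0162), LINC00667 (0.00192) and LINC00896 (0.0339). Without the 6 identifiers that carry another symbol, an alternative added after seeing the data, 52 were higher and 10 lower. The cause of these shifts was not tested. With 2 libraries per group and as few as 3 reads in a library, small changes of the lowest members were not detectable at this depth. No paired analysis was possible because the columns carry no replicate numbers of the labels.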

Other observations

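Some names in the set are not simple intergenic RNAs. The table gives 6 of the 122 identifiers a further symbol, and 4 loci hold a small RNA gene inside. LINC00461, whose locus holds the microRNA gene MIR9-2, had a log2 fold change of 0.13 (limma, adjusted p = 0.337). LINC01590, on the identifier of the coding gene SMIM8, had 660 and 702 normalized counts in No glucose, against 768 and 787 in Ctrl (adjusted p = 0.0822). LINC00672, now named LASP1NB and listed as protein-coding in GENCODE 29, was higher, with a log2 fold change of 0.97 ± 0.18.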
